A study of Mus musculus with 246 samples.

Results

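The genes described here are the 4 adult globin genes Hba-a1, Hba-a2, Hbb-bs and Hbb-bt, and Alas2, the erythroid enzyme of heme synthesis. They were chosen by gene name from the deposited table, and all 5 were found among its 56691 genes. Adult mouse hemoglobin is a tetramer of alpha chains, encoded by Hba-a1 and Hba-a2, and beta chains, encoded here by Hbb-bs and Hbb-bt. Each chain holds a heme group, and Alas2 catalyses the first and rate-limiting step of heme synthesis in developing red cells. In mammals the nucleus is lost before the cell enters the circulation, but young red cells still carry globin mRNA, so tissue taken with blood in its vessels yields globin reads. Low globin expression in neurons and glia has also been described. The beta globin locus of mice is polymorphic, with Hbb-bs and Hbb-bt as the adult genes of the haplotype in the reference strain and Hbb-b1 and Hbb-b2 as those of another haplotype. The question was how far the levels and the balance of the copies followed the piece of tissue, the brain region, the individual mouse, the early-life condition and a social encounter.

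The 41 mice were adult males of the outbred CD1 stock, and punches from 6 parts of each brain were sequenced separately, so that each library was 1 region of 1 mouse. The cortical regions were the mPFC (medial prefrontal) and the ACC (anterior cingulate). Below the cortex lay the Nacc (nucleus accumbens), the DMT (dorsomedial thalamus), the vHipp (ventral hippocampus) and the BLA (basolateral amygdala). The mice had grown up with standard bedding and a dam given an empty gel depot (Ctrl_Vehicle, Ctrl_Veh below), with limited bedding and nesting in the first days of life and the same empty gel (ELA_Vehicle, ELA_Veh), or with limited bedding and a dam given a gel depot of SAFit2, an inhibitor of the stress-related chaperone FKBP51 that reaches the pups in the milk (ELA_SAFit2). The basal set, labelled NoInteraction, had 7 mice per condition, and the social set, labelled SocialInteraction, had 6 Ctrl_Veh, 7 ELA_Veh and 7 ELA_SAFit2 mice that had met another mouse for 10 minutes. There was no group with standard bedding and SAFit2, so the compound was not tested without adversity. The sample labels give no age and do not tie mice to litters, and mice of the 3 conditions were housed together from weaning. Punches from both hemispheres were pooled, and the study's methods name no perfusion before the brains were frozen.

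Total counts lay between 20804247 and 43351424 per library. Markers of the regions followed the labels in most cases: Drd1 and Drd2 had their highest median in the Nacc, Tcf7l2 and Slc17a6 in the DMT and Zbtb20 in the vHipp, while Rspo2, a marker of excitatory amygdala neurons, was higher in both cortical regions than in the BLA. In the Nacc, 12 of 41 libraries resembled the other regions of another mouse more than those of the mouse on their label. This was seen over 60 genes that differ between mice, without the 5 genes described here. The 12 matched mice were the same 12 animals in another order, and each was in another condition or set than the labelled mouse. No other region had such a library with 60 genes. All libraries were kept under their labels, and the spread between mice and the calls between regions are given with and without these libraries or the whole Nacc.

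The copies of each chain are nearly identical, which matters for every value below. In the GENCODE M21 transcripts, the coding parts of Hba-a1 and Hba-a2 had 429 bases each and differed at 1 base, and those of Hbb-bs and Hbb-bt had 444 bases each and also differed at 1 base, an identity of 99.8% in both cases. The coding stretch around that base is shown for each gene, with the differing base in capitals, at base 381 of the coding part in the alpha genes and at base 417 in the beta genes.

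Hba-a1: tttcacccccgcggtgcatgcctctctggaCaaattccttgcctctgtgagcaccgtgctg

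Hba-a2: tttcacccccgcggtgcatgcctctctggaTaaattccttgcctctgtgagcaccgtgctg

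Hbb-bs: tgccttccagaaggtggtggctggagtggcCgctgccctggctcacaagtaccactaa

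Hbb-bt: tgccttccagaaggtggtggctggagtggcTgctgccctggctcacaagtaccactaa

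Of all 31-base words of the transcripts, 71.3% of those of Hba-a1 occurred also in Hba-a2, and 477 of the 524 words of Hba-a2 were shared. For the beta genes 66.9% of the words of Hbb-bs were shared with Hbb-bt and 59.4% of those of Hbb-bt with Hbb-bs. Hba-a2 had 47 words of its own, against 192 in Hba-a1, 198 in Hbb-bs and 273 in Hbb-bt, and most of the words that set the other 3 genes apart touched the untranslated ends. The deposited values of the globins were accordingly not whole numbers in all libraries but 1 for the alpha genes and in every library for the beta genes, against 5 libraries for Alas2, since shared reads are divided between the copies by estimation. The division between 2 copies is therefore uncertain, and a copy's share depends on the part of each transcript that the other copy lacks. The sum of the 2 copies does not depend on this division.

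All 5 genes were detected in every library. Hba-a1 lay between 46.7 and 265 CPM (counts relative to the library size, scaled by edgeR's TMM factors), with a median of 86.6. Hbb-bs lay between 34.8 and 224 CPM with a median of 68.985. The major copy of each chain thus varied 5.67-fold and 6.43-fold over the libraries. Hba-a2, the minor alpha copy in these counts, had a median of 8.54 CPM and ranged from 0.58 to 28.5, a 49.1-fold range. Hbb-bt had a median of 7.81 CPM with a range of 2.13 to 22.4, and Alas2 of 2.11 CPM with a range of 0.997 to 7.43. The lowest values correspond to 15 counts for Hba-a2, 64 for Hbb-bt and 24 for Alas2, so counting error is largest there. Per kilobase of transcript, the median level of Hba-a1 was 1.13 times that of Hbb-bs, that of Hba-a2 was 0.140 times, that of Hbb-bt 0.101 times and that of Alas2 0.00944 times. By median CPM, Hba-a1 stood at rank 2598 and Hbb-bs at rank 3293 of 16615 protein-coding genes with a median over 0, and Alas2 at rank 12597.

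**Figure D1:**
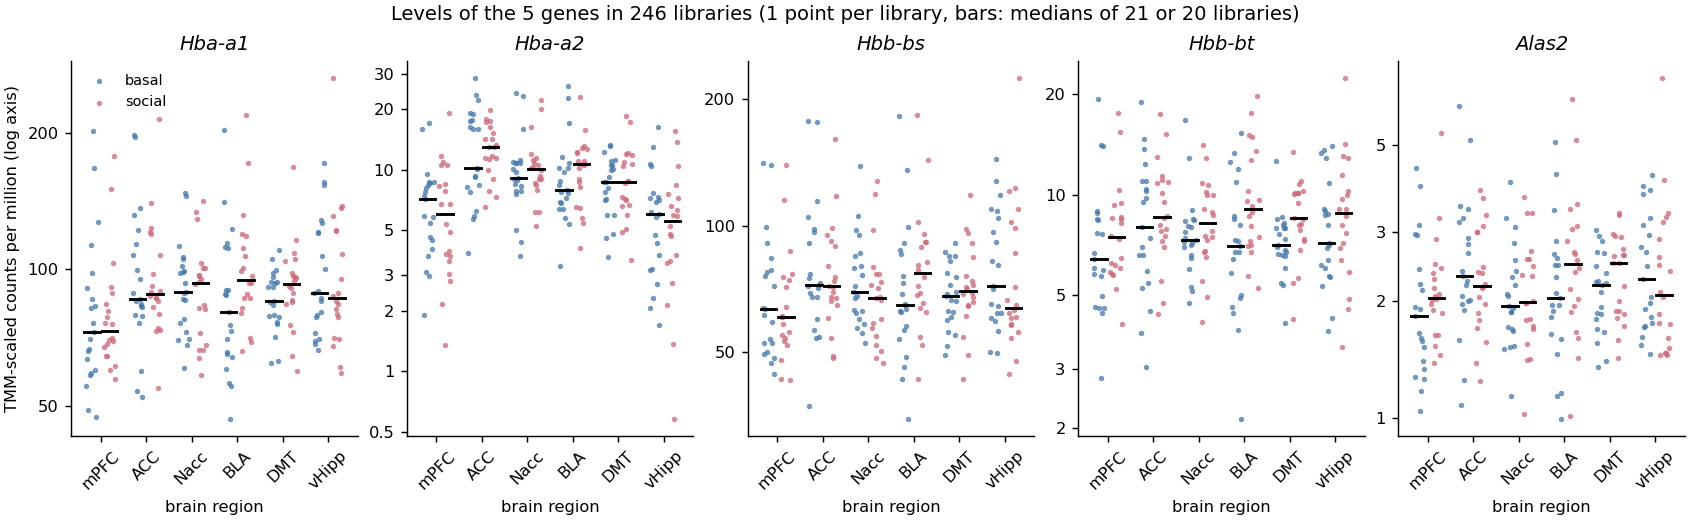
Levels of the 5 genes in TMM-scaled CPM (log axis) in 6 brain regions, with 1 point per library, the basal set in blue, the social set in red and black bars at the medians of 21 basal or 20 social libraries. Libraries of the same region spread several-fold for each gene, the medians of Hba-a1, Hbb-bs, Hbb-bt and Alas2 lie close together across regions, and Hba-a2 is highest in the ACC and lowest in the vHipp.

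Several genes that define red cells and their precursors were at or near 0 in the same libraries. The median count was 2 for Slc4a1, the anion exchanger of the red cell membrane, and 0 for Epb42, Rhag and Gata1, the master transcription factor of the lineage. Klf1, the factor that activates the adult beta globin promoter, had a median count of 4. Of 11 erythroid transcription factors and receptors, 3 had a median of 0, and 7, among them Tfrc, Ldb1 and Tal1, which other cells of the brain also express, had medians of 1.43 to 106 CPM. Of the 19 genes found from a list of 20 red cell membrane and late erythroid genes, 6 had a median of 0, and the summed level of the list, 253 to 352 CPM, was carried by Bnip3l, Mkrn1, Bpgm and Tspan33, which brain cells also express. The embryonic globins Hbb-y, Hbb-bh1 and Hba-x had median counts of 0 and at most 1 count in any library. The theta globin genes Hbq1a and Hbq1b had median counts of 7 and 11. Neuroglobin (Ngb) and cytoglobin (Cygb), which neural and fibroblast-like cells express, had medians of 3.75 and 56.8 CPM. Hbb-b1, Hbb-b2 and Ahsp, the chaperone of free alpha chains, had no row in the table under these names. In such bulk tissue, fewer red cells and less globin RNA per red cell cannot be told apart.

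Between regions, the clearest difference was in Hba-a2. In the ACC its level lay between 3.85 and 28.5 CPM with a median of 12.9 over 41 mice, and in the vHipp between 0.58 and 16.4 with a median of 5.91. The medians of the other regions fell between these, at 9.78 CPM in the Nacc (range 3.72 to 24.1), 8.95 in the BLA (3.32 to 26.0), 8.72 in the DMT (3.58 to 18.5) and 6.73 in the mPFC (1.34 to 19.2). The ranges overlapped between all regions, yet Hba-a2 was higher in the ACC than in the vHipp in 37 of the 41 mice. In edgeR's quasi-likelihood test over all libraries, with Benjamini-Hochberg adjustment over 17381 genes, the ACC exceeded the vHipp by 1.12 ± 0.16 (SE) on the log2 scale, a 2.17-fold difference (adjusted p = 7.1e-11). The mPFC was lower than the ACC by 0.93 ± 0.16 (adjusted p = 2.1e-07).

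Hba-a2 passed this test in 10 of the 15 region pairs. The share of all tested genes that passed was 76.2% for the ACC against the vHipp, 38.7% for the mPFC against the ACC, and up to 83.3% in the other pairs, so a difference between regions is the rule among genes and the count alone does not set Hba-a2 apart. The ACC, Nacc, BLA and DMT were each higher than both the mPFC and the vHipp, by 0.39 to 1.12 on the log2 scale, and the ACC was also higher than the BLA by 0.35 ± 0.15 (adjusted p = 0.032) and the DMT by 0.53 ± 0.15 (adjusted p = 9.4e-04). Between neighbours in the order of medians, ACC and Nacc (adjusted p = 0.066), Nacc and BLA (0.79), BLA and DMT (0.27), and mPFC and vHipp (0.28) did not pass.

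The balance of the alpha copies differed between regions in the same order. As a percent of both alpha copies, Hba-a2 had a median of 11.7% (ACC, range 6.36 to 18.2), 9.77% in the Nacc (4.14 to 18.99), 9.48% for the BLA (4.87 to 13.9), 8.72% for the DMT (4.15 to 15.1), 6.85% for the mPFC (2.05 to 16.2) and 4.94% for the vHipp (0.850 to 11.4). In a single library the counting error of this share was 0.520 percentage points at the median (binomial SD). This SD leaves out the error of dividing shared reads. The share was higher in the ACC than in the vHipp in 39 of 41 mice, with a median difference of 5.93 percentage points. With the alpha copies summed before the fit, the ACC and the vHipp differed by 0.07 ± 0.10 on the log2 scale, which did not pass (adjusted p = 0.54). The summed copies were lower in the mPFC than in the ACC by 0.30 ± 0.10 (adjusted p = 0.010). Because Hba-a1 and Hba-a2 share most of their sequence, whether the estimation divided the shared reads alike in all regions was not tested.

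**Figure D2:**
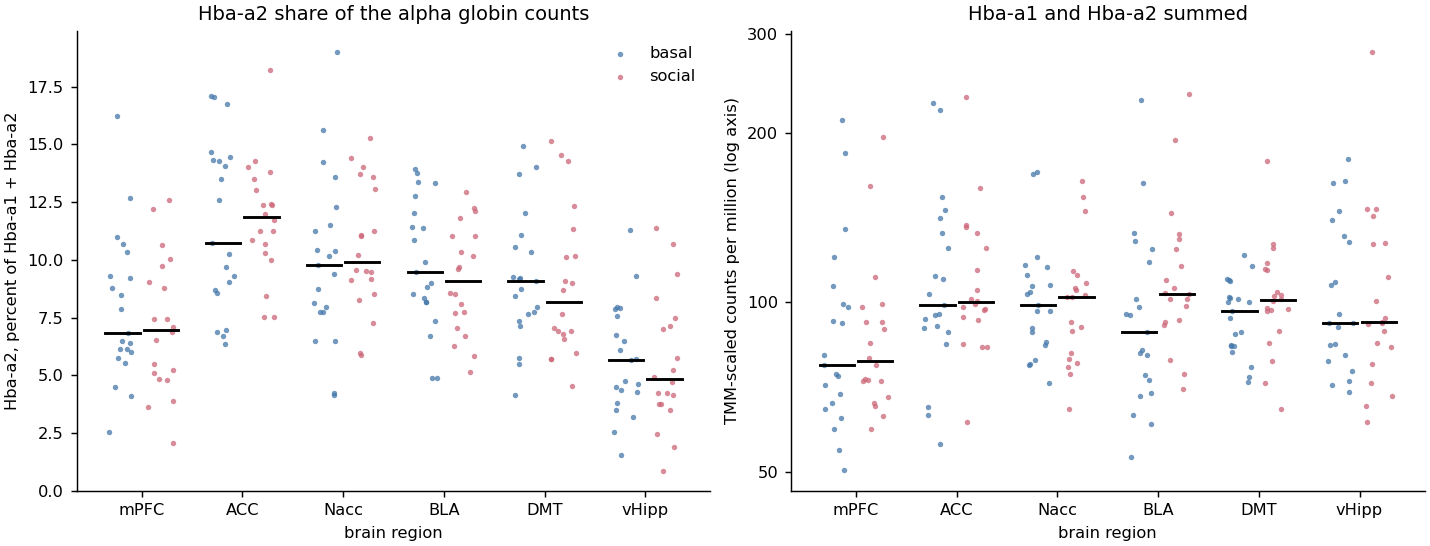
Left, Hba-a2 as a percent of the counts of Hba-a1 and Hba-a2 in 6 regions, and right, the 2 copies summed in TMM-scaled CPM (log axis), with 1 point per library, the basal set in blue, the social set in red and bars at the medians. The share has medians from 4.94% in the vHipp to 11.7% in the ACC in the left panel, while the sum in the right panel is lowest in the mPFC and similar in the other 5 regions.

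The other members differed less between regions. Hba-a1 had a median of 72.7 CPM for the mPFC and higher ones elsewhere (vHipp 87.2, ACC 87.3, BLA 88.4, DMT 91.3 and Nacc 92.8). It was lower in the mPFC than in the vHipp by 0.26 ± 0.10 on the log2 scale (adjusted p = 0.013), lower in 29 of 41 mice. Against the ACC the mPFC was lower by 0.24 ± 0.10 (adjusted p = 0.048) and against the BLA by 0.21 ± 0.10 (adjusted p = 0.047). Hbb-bs, the major beta copy, passed in 1 pair, the mPFC against the vHipp, where it was lower by 0.24 ± 0.10 (adjusted p = 0.034). Its medians were 61.015 CPM in the mPFC and 66.6 to 72.1 in the other regions. With the 21 basal mice alone, 0 of these 4 calls of Hba-a1 and Hbb-bs passed. Hbb-bt had medians of 6.68 CPM in the mPFC and 7.501 to 8.54 elsewhere, and Alas2 medians of 1.96 to 2.30 over the 6 regions. In edgeR's test Hbb-bt and Alas2 passed in 0 of 15 pairs each, also with 0 at an unadjusted p under 0.05. With limma-voom both also had 0, and with the 20 social mice alone Hbb-bt passed in 1 pair, lower in the mPFC than in the BLA by 0.36 ± 0.16 (adjusted p = 0.044).

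In all, 14 of 75 tests of a member between regions passed. Without the 12 mismatched Nacc libraries 15 passed, including the 14, and in the Nacc itself 0 member tests of conditions or sets passed with or without them. With the mouse as a block, which uses that each animal gave all 6 regions, 22 of 75 passed, including all 14, where 41.8% to 84.9% of all genes passed. The 8 further ones were Alas2, Hbb-bs and Hbb-bt, lower in the mPFC than in the ACC and the BLA, Alas2 lower in the mPFC than in the vHipp, and Hbb-bs lower in the DMT than in the vHipp, by 0.17 to 0.23 on the log2 scale. Without the Nacc the block gave 19 of 50, and Hbb-bs for the mPFC against the BLA no longer passed (adjusted p = 0.064). In the fit with the block over all regions, all 5 genes were lower in the mPFC than in the ACC and the BLA. The summed level of 10 endothelial markers had medians of 207 CPM in the mPFC (range 170 to 280), 208 in the ACC (182 to 235) and 196.5 in the BLA (167 to 229), and was highest in the DMT at 269 (226 to 297.5). Summed mural cell markers were lowest in the mPFC, with a median of 171 CPM (135 to 281), against 177 in the ACC (149.5 to 211), 182 in the BLA (156 to 211) and 226 in the DMT (203 to 253). The part of vessel density in the globin levels was not tested. Nearly all mPFC libraries were numbered in a series apart from those of the ACC, Nacc and BLA, which were numbered region by region. A difference between regions therefore cannot be told apart from one between series of libraries.

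The balance of the beta copies followed the mouse. Hbb-bt, as a percent of Hbb-bs and Hbb-bt together, had region medians between 9.87% and 10.6%, so that regions differed little. Averaged over the 5 regions other than the Nacc, the share was 6.04% in the lowest mouse, 9.85% at the median and 13.6% in the highest mouse, a 2.26-fold range. Within a mouse, the SD of the share over these 5 regions was 0.794 percentage points at the median (range 0.357 to 1.77), close to the counting error of 0.620 points in a single library. In the lowest mouse, number 37, the shares were 8.40% (mPFC), 5.28% (ACC), 4.40% (BLA), 6.43% (DMT) and 5.68% (vHipp). In the highest, number 1, they were 15.6%, 13.7%, 13.5%, 12.96% and 12.3% in the same order. The highest share of mouse 37, 8.40%, lay below the lowest of mouse 1, 12.3%. These 2 mice were picked as the extremes of the same shares.

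In single libraries the lowest share was 4.40%, in the BLA of mouse 37 (Wilson 95% interval 3.46 to 5.58), and the highest 15.6%, in the mPFC of mouse 1 (lower bound 14.4), where the intervals cover counting error only. The widest gap between neighbours in the order of mouse means was 0.707 percentage points, between the lowest and the next mouse, and the values formed a continuous range. All 5 regions of 22 mice lay above the highest value of the 8 lowest mice, 8.53%, a cut made on these same values. Of the spread of the share that regions do not account for, 82.1% lay between mice and the rest within mice (95% interval from the F distribution 73.9 to 88.8, 5 regions, 41 mice). With the Nacc included this was 72.8% (62.3 to 82.2). The haplotype of each mouse at the beta globin locus was not measured, and relatedness between mice of the same litter could not be taken into account. Hbb-b1 and Hbb-b2 had no values under these names. How any reads of other alleles were divided between Hbb-bs and Hbb-bt was not tested.

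**Figure D3:**
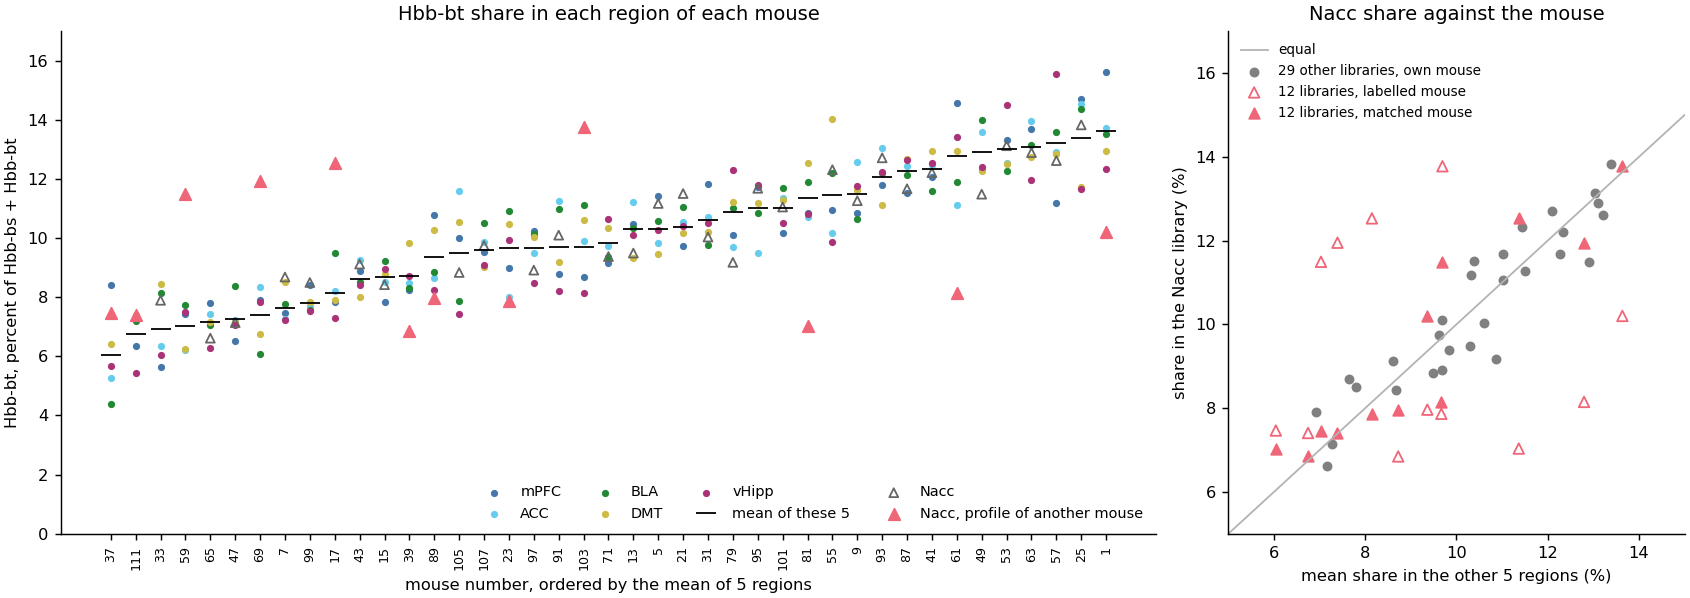
Left, Hbb-bt as a percent of Hbb-bs and Hbb-bt in the 6 regions of each of 41 mice, ordered by the mean of 5 regions (bars), with 12 Nacc libraries that match another mouse as filled red triangles. Right, the Nacc share against the mean of the other 5 regions of the labelled mouse (open symbols and grey points) or of the matched mouse (filled triangles); the points of a mouse lie close together on the left, and the 12 libraries lie closer to the line of equality with the matched mouse on the right.

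The 12 Nacc libraries gave a check of this measure that did not use the globins to assign the mouse. The Nacc share of these libraries differed from the labelled mouse's mean in the other 5 regions by 3.76 percentage points at the median (range 0.659 to 4.65), and from the matched mouse's mean by 0.800 (0.0145 to 1.80). In 12 of 12 the matched mouse was the closer. For the other 29 Nacc libraries the difference from the labelled mouse was 0.595 at the median (0.0381 to 1.70). Mouse 17, for example, had an Nacc share of 12.5% and shares of 7.28% to 9.48% in its other 5 regions.

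For the levels of the genes, less of the spread lay between mice. Over the 5 regions without the Nacc, the share of spread between mice was 52.2% for the level of Hbb-bt on the log2 scale (95% interval 38.1 to 66.7), 34.8% for Hbb-bs (20.9 to 51.2), 33.2% for Alas2 (19.4 to 49.7), 30.2% for Hba-a1 (16.7 to 46.8) and 26.0% for Hba-a2 (12.9 to 42.5). With the Nacc these shares were 46.0%, 31.8%, 30.6%, 27.5% and 19.2% in the same order. The alpha chains as a percent of all globin counts came next to the Hbb-bt share, with 54.2% of the spread between mice (40.3 to 68.3) and 50.6% with the Nacc. Across 13712 genes measured in all regions, 12.9% lay between mice at the median and 39.3% at the 90th percentile without the Nacc. The levels also varied more within a mouse than those of most genes: the SD within mice without the Nacc was 0.35 to 0.37 on the log2 scale for Hba-a1, Hbb-bs, Hbb-bt and Alas2 and 0.59 for Hba-a2, against 0.116 for the median gene and 0.285 at the 90th percentile. The balance of the alpha copies did not repeat across the regions of a mouse as that of the beta copies did. Of the spread of the Hba-a2 share, 9.30% lay between mice (95% interval 0.561 to 22.4), and 13.4% without the Nacc (2.41 to 28.8). Of its total spread, 31.1% lay between regions, against 0.344% for the Hbb-bt share. The 2 shares are not measured equally well, since Hba-a2 had 47 words of its own, against 198 in Hbb-bs and 273 in Hbb-bt. The part of the division of shared reads in either spread was not tested.

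The 5 genes rose and fell together from library to library. Over the 41 mice of a region, Pearson's r between Hba-a1 and Hbb-bs on the log2 scale was 0.883 in the DMT to 0.981 in the highest region, with Spearman's rho of 0.832 to 0.958 (adjusted permutation p at most 1.5e-05 for both measures in 6 of 6 regions). Between Hba-a1 and Alas2 r was 0.748 to 0.946 (rho 0.798 to 0.905) and between Hbb-bs and Alas2 0.684 to 0.943 (rho 0.71 to 0.916), with the same bound on the permutation p. Without the 2 mice farthest from the median, the lowest of these r values were 0.849, 0.727 and 0.669 for the 3 pairs, and within the sets they were 0.867, 0.779 and 0.715 (basal) and 0.895, 0.720 and 0.662 (social). Alas2 is encoded on another chromosome than both globin loci and is not a copy of them, so the division of reads between copies does not enter its values.

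The correlations of the minor copies covered a wider range. Hbb-bt had an r of 0.729 to 0.903 with Hba-a1 and of 0.616 to 0.849 with Alas2 (adjusted permutation p by rho at most 0.0014). Hbb-bs and Hbb-bt had an r of 0.486 to 0.803 (rho 0.349 to 0.779, adjusted permutation p at most 0.028), and 0.351 in the lowest region without the 2 farthest mice. Pairs with Hba-a2 had r values of 0.318 to 0.783. Of 60 relations, 10 pairs in 6 regions, all 60 had an adjusted p under 0.05 by r and 55 by rho with 100000 permutations, and the smallest raw p these can give is 1e-05. The 5 that missed by rho all had Hba-a2, 4 in the Nacc and 1 in the DMT, with adjusted p-values up to 0.24. All libraries of a region share the scaling to library size, which was not varied in these correlations.

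Little of the variation in the ratio of Alas2 to the globins lay between mice. The highest ratio of Alas2 to the 4 globins summed was 1.67 to 2.35 times the lowest among the 41 mice of a region. Of the spread of the ratio, 3.33% lay between mice (95% interval 0.0 to 14.8), and 3.07% without the Nacc (0.0 to 16.3). Alas2 had a median of 62 counts per library, so counting error enters this ratio within mice. The part of counting error in its spread was not tested. The summed globins themselves ranged from 97.8 to 525 CPM over the libraries, the highest being the vHipp of a social ELA_Veh mouse, which also had the highest Alas2 of all libraries, 7.43 CPM. The same mouse had a mean Hbb-bt share of 9.61% over 5 regions, near the median of the mice.

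**Figure D4:**
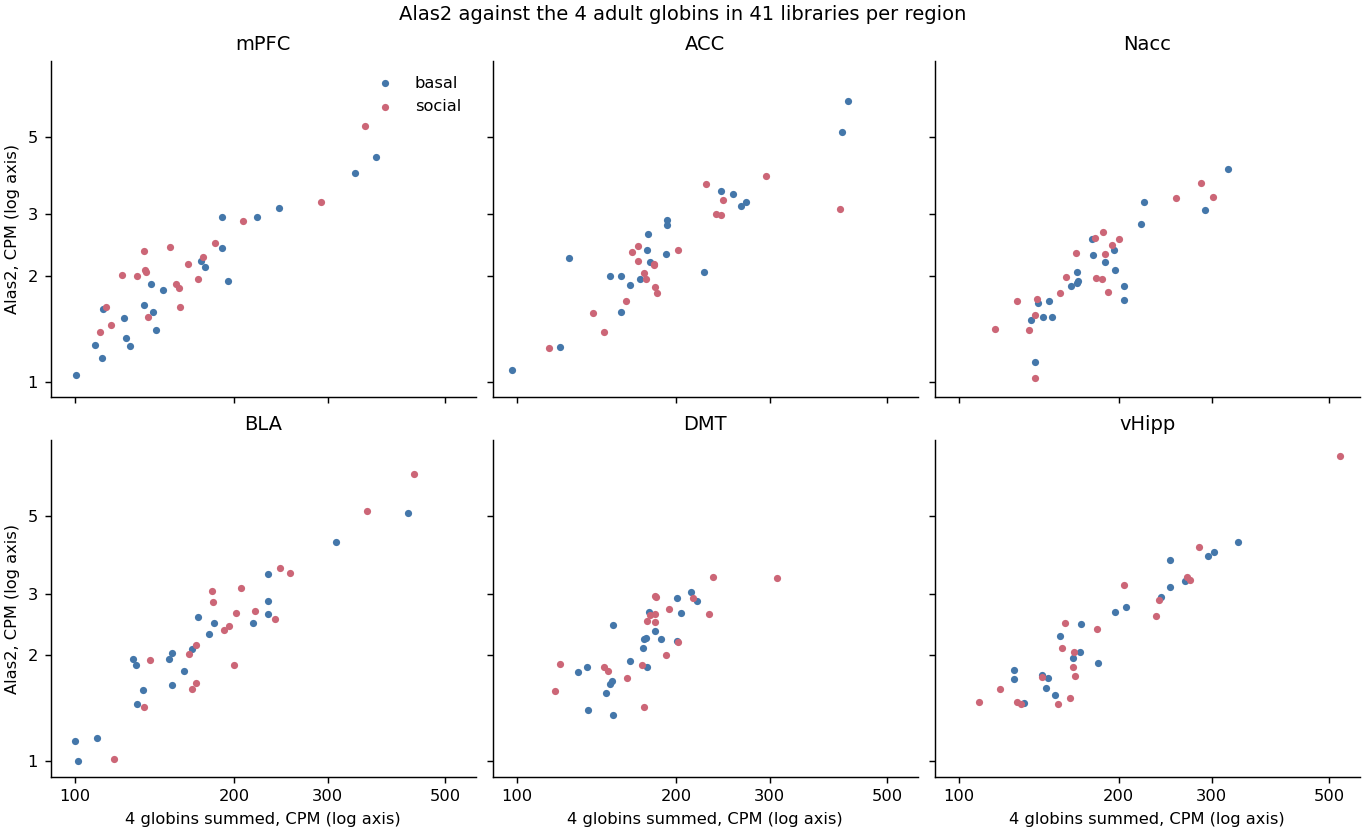
Alas2 against the sum of Hba-a1, Hba-a2, Hbb-bs and Hbb-bt, both in TMM-scaled CPM on log axes, in 41 libraries of each of 6 regions, with the basal set in blue and the social set in red. In each region the points lie along a rising line, and the library with the most globin, from the vHipp at 525 CPM, also has the most Alas2 at 7.43 CPM.

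The 100 bases before each start site are shown as RefSeq gives them for GRCm38.p6. This is an earlier build than the one in the submitters' processing notes (GRCm39). Capitals mark 4 motifs, each searched on both strands. The first was CCAAT, bound by nuclear factor Y. The second was CACCC, bound by Klf1 and related factors. A TATA-like box was searched as ATATAA. A motif of the GATA factors was searched as AGATAA. The form ATATAA was chosen after the sequences were seen. The windows are chr11:32283572-32283671 (plus strand) for Hba-a1, chr11:32296392-32296491 (plus) for Hba-a2, chr7:103827929-103828028 (minus) for Hbb-bs, chr7:103813924-103814023 (minus) for Hbb-bt and chrX:150547317-150547416 (plus) for Alas2.

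Hba-a1: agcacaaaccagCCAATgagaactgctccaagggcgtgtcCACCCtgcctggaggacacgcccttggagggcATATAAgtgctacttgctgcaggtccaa

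Hba-a2: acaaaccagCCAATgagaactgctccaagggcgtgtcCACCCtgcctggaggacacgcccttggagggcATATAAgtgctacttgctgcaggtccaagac

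Hbb-bs: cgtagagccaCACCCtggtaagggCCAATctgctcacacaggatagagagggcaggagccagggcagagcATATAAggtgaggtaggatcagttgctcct

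Hbb-bt: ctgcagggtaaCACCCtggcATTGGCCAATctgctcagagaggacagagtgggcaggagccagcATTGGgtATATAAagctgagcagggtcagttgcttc

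Alas2: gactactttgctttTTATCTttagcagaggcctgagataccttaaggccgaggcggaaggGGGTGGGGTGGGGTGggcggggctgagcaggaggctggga

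In a global alignment the windows of Hba-a1 and Hba-a2 shared 97 of 100 bases and those of Hbb-bs and Hbb-bt 74, against 45 between Hba-a1 and Hbb-bs. All 4 globin windows held CCAAT, which stands in 19.6% of the 27025 promoters of the same table in a window of this length, as well as CACCC (26.8%) and the TATA-like box (3.9%). Together the 3 motifs stood in 58 of these promoters, or 0.21%, with the 4 globins among them. Since ATATAA was chosen after the globin windows were seen, this share does not measure how unusual they are. Alas2 held CACCC on the minus strand and AGATAA, present in 3.6% of promoters, and neither CCAAT nor ATATAA in this window. These matches are a description of letters and not of binding. Whether they bear on the correlations of the levels was not tested.

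Of 15868 genes ranked by their mean Spearman rho with the summed globins over the 6 regions, Alas2 was first at 0.859 (0.805 to 0.916 over the regions). Genes after it were far lower, among them Mgp, a matrix protein of vessel walls, at 0.521, and Cyp1b1, an enzyme of pericytes and endothelium, at 0.459. Others among the 10 most alike were Itih5 (0.444), the macrophage lysozyme Lyz2 (0.436), the vitamin B12 carrier Tcn2 (0.435), the astrocyte genes Sox9 and Aldh1l1 (0.424 each), Bmp6 (0.420) and the fibroblast collagen Col1a2 (0.420). The median over all genes was -0.013. Marker lists had a median rho of 0.190 for 10 endothelial markers, 0.136 for 8 mural markers, 0.266 for the 2 neutrophil markers that could be ranked, 0.023 for 5 platelet markers and 0.034 for 9 red cell membrane and late erythroid genes, among which Tent5c reached 0.409. The median was -0.107 for 3 neuron markers and -0.064 for 10 region markers. For the 12 other heme synthesis genes the median was -0.012, from -0.215 to 0.144.

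The early-life conditions gave no detectable difference in any of the 5 genes. Within each set and region, ELA_Veh was compared with Ctrl_Veh, ELA_SAFit2 with ELA_Veh and ELA_SAFit2 with Ctrl_Veh, which gave 180 tests of a member. With edgeR 0 of 180 passed and 3 had an unadjusted p under 0.05, and with DESeq2 0 passed and 3 had one. The share of all genes that passed was 0.0% in 35 of the 36 comparisons and 0.00649% in the BLA of the social set for ELA_SAFit2 against ELA_Veh. Averaged over the 5 regions other than the Nacc, the summed globins were 174 ± 35.7 CPM (mean ± SD, n = 7) in basal Ctrl_Veh, 192 ± 46.3 (n = 7) in basal ELA_Veh and 191 ± 45.6 (n = 7) in basal ELA_SAFit2. In the social set they were 190.1 ± 45.6 (n = 6), 193 ± 35.8 (n = 7) and 190.6 ± 56.6 (n = 7) in the same order.

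The 3 member tests with an unadjusted p under 0.05 concerned Hba-a2 and Hbb-bt. In the vHipp of the basal set, Hba-a2 lay between 1.69 and 7.70 CPM in Ctrl_Veh (median 3.76), between 4.74 and 10.7 in ELA_Veh (median 7.08) and between 2.06 and 16.4 in ELA_SAFit2 (median 6.94). The 3 groups overlapped. The difference was 0.85 ± 0.40 (SE, log2) for ELA_Veh and 0.83 ± 0.40 for ELA_SAFit2 against the same Ctrl_Veh mice, with adjusted p-values of 0.96 and 0.89. In the ACC of the social set Hbb-bt lay between 4.39 and 17.4 CPM in Ctrl_Veh (median 11.99) and between 4.75 and 10.8 in ELA_Veh (median 7.89), a difference of -0.51 ± 0.24 (adjusted p = 0.62). The smallest adjusted p of a member over the 36 comparisons was 0.62. The SE of a difference was 0.26 at the median over the members and 0.36 for Hba-a2, and the 1.80-fold difference of Hba-a2 did not pass the adjustment over all genes.

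**Figure D5:**
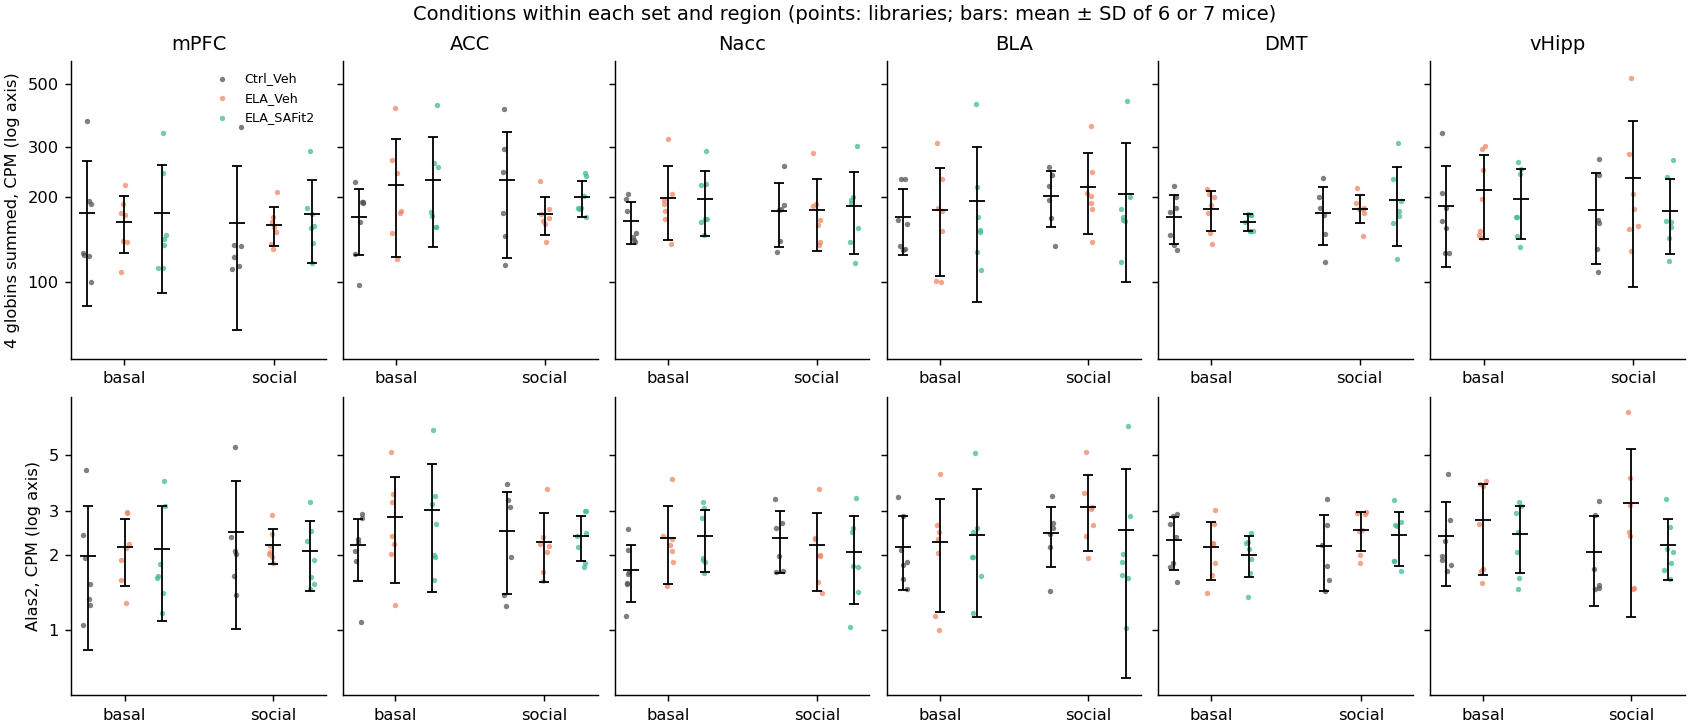
The 4 globins summed (top) and Alas2 (bottom) in TMM-scaled CPM (log axes) by condition, set and region, with 1 point per library and bars at the mean ± SD of 6 or 7 mice. The 3 conditions overlap in each set and region for both measures.

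Hbb-bt shares of the beta copies by condition, as the mean over 5 regions of each mouse, were 10.4 ± 2.56% (mean ± SD, n = 7) in basal Ctrl_Veh, 8.78 ± 1.83% (n = 7) in basal ELA_Veh and 9.16 ± 1.67% (n = 7) in basal ELA_SAFit2. In the social set they were 11.1 ± 2.34% (n = 6), 10.7 ± 2.14% (n = 7) and 10.49 ± 1.95% (n = 7). Each group held mice with low and mice with high shares, with lowest values of 6.04 to 8.15% and highest values of 11.015 to 13.6%. The mean of each condition was lower in the basal set than in the social set, and the ranges of the mice overlapped.

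The social encounter was compared with the basal set over all 3 conditions in each region. With edgeR 0 of 30 member tests passed and 2 had an unadjusted p under 0.05, and with DESeq2 these numbers were also 0 and 2. The share of all genes that passed was 7.4% (mPFC), 4.15% (ACC), 0.0% (Nacc), 1.49% (BLA), 1.6% (DMT) and 1.21% (vHipp). Both member tests concerned Hbb-bt. In the DMT it lay between 4.11 and 12.6 CPM without (median 7.09, n = 21) and between 4.23 and 13.4 with the encounter (median 8.50, n = 20), a difference of 0.25 ± 0.11 on the log2 scale (edgeR, adjusted p = 0.30). In the BLA the medians were 7.01 and 9.06 CPM and the difference 0.41 ± 0.19 (adjusted p = 0.30). The differences of the other 4 members lay between -0.17 and 0.23 over the 6 regions, with SEs of 0.085 to 0.27.

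Other genes of the pathway were tested in the same fits. Between conditions, 0 of 432 tests of 12 other heme synthesis genes, 0 of 309 of red cell membrane and late erythroid genes, 0 of 258 of erythroid transcription factors and receptors and 0 of 252 of hemoglobin and heme clearance genes passed. After the social encounter, 3 of 72 tests of other heme synthesis genes passed, all lower and all in the mPFC or the ACC. Of all genes, 7.4% passed in the mPFC and 4.15% in the ACC, so the count alone does not set this list apart. Ppox, the oxidase that makes protoporphyrin, was lower in the mPFC (-0.11 ± 0.03, adjusted p = 0.015) and the ACC (-0.10 ± 0.03, adjusted p = 0.045). The mitochondrial transporter Abcb10 was lower in the ACC (-0.13 ± 0.04, adjusted p = 0.038). The lists of red cell membrane genes, erythroid factors, clearance genes, other globins, neutrophil and platelet markers had 0 calls in the 6 regions by edgeR. Between regions, where 38.7% to 83.3% of all genes passed, so did 143 of 180 tests of other heme synthesis genes, 158 of 255 of red cell membrane and late erythroid genes, 93 of 135 of erythroid factors and 73 of 120 of clearance genes. Of the member tests between regions 14 of 75 passed, and the difference from these lists was not tested.

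The condition effects did not differ detectably between the sets. Of 60 member tests of such a difference 0 passed with edgeR and 2 had an unadjusted p under 0.05, with the same numbers for DESeq2. The share of all genes that passed was 0.0% in 8 of the 12 comparisons and at most 0.0382% in the others. Both were in the ACC for ELA_Veh against Ctrl_Veh. Hbb-bs had medians of 69.3 CPM (range 37.2 to 90.8) in basal Ctrl_Veh and 73.3 (54.2 to 177) in basal ELA_Veh, and of 81.8 (49.02 to 161) and 67.8 (48.5 to 91.9) in the social set, a difference between the sets of -0.85 ± 0.36 on the log2 scale (edgeR, adjusted p = 0.41). For Hba-a1 the value was -0.77 ± 0.35 (adjusted p = 0.42).

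With the counts of the 6 regions of each labelled mouse summed, 12 of the 41 sums held a Nacc library that matched another mouse. In this fit 0 of 35 member tests passed with edgeR and 0 had an unadjusted p under 0.05, with 0 and 0 by DESeq2. The share of all genes that passed was 0.0% in the 6 comparisons of conditions and 8.56% for the social encounter. For ELA_Veh against Ctrl_Veh in the basal set the differences were 0.11 ± 0.15 for Hba-a1, 0.26 ± 0.20 for Hba-a2, 0.19 ± 0.17 for Hbb-bs, -0.04 ± 0.21 for Hbb-bt and 0.17 ± 0.19 for Alas2. For the social encounter they were 0.05 ± 0.09 for Hba-a1, 0.01 ± 0.12 for Hba-a2, -0.01 ± 0.10 for Hbb-bs, 0.19 ± 0.12 for Hbb-bt and 0.06 ± 0.11 for Alas2. Without the Nacc, 0 of 35 passed and 0 had an unadjusted p under 0.05, and the differences for ELA_Veh against Ctrl_Veh in the basal set were 0.07 ± 0.17 for Hba-a1, 0.30 ± 0.23 for Hba-a2, 0.17 ± 0.18 for Hbb-bs, -0.11 ± 0.23 for Hbb-bt and 0.12 ± 0.20 for Alas2. For the social encounter without the Nacc they were 0.06 ± 0.10 for Hba-a1, 0.00 ± 0.13 for Hba-a2, 0.01 ± 0.11 for Hbb-bs, 0.20 ± 0.14 for Hbb-bt and 0.06 ± 0.12 for Alas2.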

How the data were processed

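RNA of 6 brain regions of 41 mice was sequenced with a stranded poly-A protocol. The deposited table holds the authors' estimated counts per gene in a merged salmon layout, of which 12.1% of values were not whole, and the submitters' processing notes name STAR, DESeq2 and GRCm39 without versions. The annotation release is not given in the sources used here. Values were rounded to whole numbers for the tests. Of 56691 genes, 52073 were typed by GENCODE M21 identifier and 978 by RefSeq symbol, and 3640 were left out of the tests. Tests covered protein-coding genes whose counts added up to 100 or more and were above 0 in 6 or more libraries, fitted with edgeR 4.0.16 (quasi-likelihood, TMM) in R 4.3.3, with Benjamini-Hochberg adjustment over all tested genes and a threshold of 0.05. Conditions were fitted within set and region, sets within region, and regions over all libraries. Alternatives were DESeq2 1.42.0, limma 3.58.1 (voom), DESeq2 size factors, no filter on low counts, an endothelial covariate, each set alone, copies summed, the mouse as a block, and leaving out the mismatched Nacc libraries. Levels are TMM-scaled CPM, with a pseudocount of 0.5 on the log2 scale. Spread between and within mice came from variance components after region means were removed. Tables were handled in Python 3.11.15 with pandas 2.3.3, SciPy 1.17.1 and Matplotlib 3.10.9. The edgeR, DESeq2 and voom methods were run on simulated data for ELA_Veh against Ctrl_Veh in the basal mPFC only. The other designs, among them the regions, the mouse block and the summed regions, were not simulated.

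The mouse number pairs libraries of the same animal. Same-mouse libraries deviated together, with a mean correlation of 0.108 to 0.401 over 15 region pairs, against -0.009 to -0.003 for different mice (13712 genes). Genes named beside the 5 members are at most 4 called per list by smallest p, and the 10 genes most like the summed globins, with exceptions for genes given as checks of markers. Some genes under this rule are not reported here. The members and lists were chosen with earlier results of these data known. Each library is 1 region of 1 mouse. Within a region, or with the regions summed, each mouse gave 1 value, so p-values there measure the spread between mice. The litters of the mice are not given. The main test between regions treated libraries of the same mouse as independent, so its p-values do not measure the spread between mice alone. Of the tests between regions, only those with the mouse as a block used the pairing.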

Additional observations from a re-analysis of the deposited data

Results flagged for a closer look

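Single libraries far from the rest of their group of 6 or 7 mice, by Dixon's criterion, were found in 16 of 252 groups of a measure, region, set and condition (6.35%), from 13 libraries, where chance gives about 1 in 20 groups. The mPFC of mouse 57 (social Ctrl_Veh) was the highest of its group for 4 genes: Hba-a1 at 178 CPM (others 57.3 to 69.7), Hba-a2 at 19.2 (1.34 to 3.97), Hbb-bs at 139 (42.9 to 56.0) and Alas2 at 5.38 (1.38 to 2.36). Mouse 31 (social ELA_SAFit2) was highest for Hba-a1 in the BLA at 219 CPM (others 65.9 to 93.1) and in the mPFC at 150.5 (64.2 to 88.7).

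Hba-a2 met the criterion in the BLA of mouse 7 (basal ELA_SAFit2) at 26.0 CPM (others 5.78 to 10.8), in the BLA of mouse 91 (social ELA_Veh) at 22.9 (6.48 to 11.1) and in the Nacc of another social ELA_Veh mouse at 20.1 (8.44 to 10.525). The other 4 genes were also highest in these 3 libraries within their groups, without meeting the criterion, with Hba-a1 at 203 CPM (others at most 112), 172 (at most 119) and 134 (at most 97.03) in the same order. As a share of the alpha copies it was 11.4% in the vHipp of mouse 49 (social Ctrl_Veh), against 1.90 to 4.15% in the others.

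Hbb-bt was high in the DMT of mouse 1 (basal Ctrl_Veh) at 12.6 CPM (others 6.54 to 8.21) and in the Nacc of mouse 99 (basal ELA_Veh) at 12.9 (6.61 to 8.43). It was also high in a Nacc library of basal ELA_SAFit2 at 16.8 (5.27 to 8.34), which matches another mouse. It was low in the DMT of mouse 17 (social Ctrl_Veh) at 4.23 CPM (others at least 8.14). As a share of the beta copies it was low in the BLA of mouse 59 (social ELA_Veh) at 7.72% (others 10.53 to 12.3) and in the vHipp of a social ELA_SAFit2 mouse at 5.44% (9.86 to 12.3).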

How the results depend on the processing

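Between conditions, sets and their difference, and with regions summed, 0 member tests passed under each alternative run. Between regions, 14 of 75 passed, and 8 with the basal set alone, 12 with the social set alone, and 4 of 45 with the copies of each chain summed. With the mouse as a replicate block 22 passed, including the 14, and this pairing was not fitted within the other comparisons, where each mouse stands in 1 group. With 20 genes in place of 60, 20 libraries resembled another mouse, 12 of them in the Nacc. No direction was reversed among the member calls between regions. Single calls lost in at least 1 setting were the 3 of Hba-a1, that of Hbb-bs, and Hba-a2 for the mPFC against the DMT and the ACC against the BLA, and Hba-a1 for the mPFC against the BLA also without a filter (adjusted p = 0.074). Over all genes, DESeq2 called 102 genes in the 36 comparisons of conditions, against 1 with edgeR, 3 with all 41 libraries of a region in the fit, 2 with the endothelial covariate and 0 without a filter. With regions summed DESeq2 called 1 to 1908 genes per comparison, against 0 to 1488. In the Nacc 4 genes passed for the social encounter without the 12 libraries, against 0. For the mPFC against the ACC 3772 genes passed with the basal set alone and 4110 with the social set alone, against 6720. The cause of these differences was not tested. Depth limits Hba-a2, Hbb-bt and Alas2 most, whose lowest counts were 15, 64 and 24.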

Other observations

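After the social encounter, 6 of 60 edgeR tests of 10 endothelial markers passed, 5 higher and 1 lower, and 1 of 48 of mural cell markers. Of all genes, 0.0% to 7.4% passed over the 6 regions. The 5 higher calls were all of Ly6c1, a surface protein of brain endothelium, in regions of the same mice. Its difference was 0.34 ± 0.08 (SE, log2) for the mPFC (adjusted p = 0.0034) and 0.28 ± 0.06 for the ACC (0.0073). It was 0.28 ± 0.07 for the BLA (0.024), 0.28 ± 0.05 for the DMT (6.6e-04) and 0.26 ± 0.06 for the vHipp (0.015). Slco1a4, a transporter of the blood-brain barrier, was lower in the ACC by 0.18 ± 0.04 (adjusted p = 0.0073), and Myh11, a smooth muscle myosin, by 0.35 ± 0.10 (0.043). With the regions of each mouse summed, where 8.56% of all genes passed, 1 of 7 neutrophil and 1 of 7 platelet markers passed. The neutrophil gene Ltf, at a median of 1 count per library, fell by 1.12 ± 0.36 (adjusted p = 0.043), the platelet gene Treml1, at a median of 3 counts, by 0.53 ± 0.14 (0.013) and the pericyte gene Vtn by 0.12 ± 0.04 (0.047). Mpg, a DNA repair gene beside the alpha globin locus, was lower in the mPFC by 0.10 ± 0.03 (adjusted p = 0.021) and in the summed regions by 0.04 ± 0.01 (0.043).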
